A study of Lactuca sativa with 36 samples.

Results

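Leaves of melatonin-pretreated Italian lettuce were compared after 1 day of cadmium (Cd) with leaves of the same pretreatment taken on day 0 of Cd. The comparison is LCdM1 minus LCdM0 in the names of the sample labels, where L stands for leaves, CdM for Cd after melatonin and the last digit for the day. Its members are the 6 libraries that the labels place in these groups, 3 per group, of 36 libraries in all. LCdM1 leaves came from seedlings given 1 µmol/L melatonin in the nutrient solution and then 50 µmol/L CdCl2 for 1 day, and LCdM0 leaves came from seedlings given the same melatonin and sampled at 0 days of Cd. Both groups carry the melatonin, so the comparison does not set leaves with melatonin against leaves without it. All plants were Lactuca sativa L. var. ramose Hort., raised for 20 days before the treatments. The labels of LCdM1 replicate 2 and of replicate 2 of the root group RCdM1 give 21 days in that place. Values of LCdM1 replicate 2 are given wherever a result turns on that library. Leaves here means the aboveground part of the plant, and each replicate was a separate set of seedlings. No melatonin-treated leaves were kept without Cd until day 1. Changes from Cd, from the added day of growth, from the added day since melatonin began and from the harvest cannot be told apart. Other groups are used beside it: leaves without melatonin (LCd1 and LCd0), melatonin-treated leaves on day 5 (LCdM5) and melatonin-treated roots (RCdM1 and RCdM0).

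Cadmium is a metal that plants do not need. It binds the sulfur of cysteine and of glutathione, the small thiol that plants use both against oxidation and to build the phytochelatins that hold metals in the vacuole. Cells under Cd therefore draw on sulfate assimilation, on thioredoxin-type proteins that reduce disulfide bonds, and on peroxidases and other enzymes that remove reactive oxygen. In leaves, chlorophyll synthesis, the light-harvesting antenna proteins that carry chlorophyll and the carbon-fixing reactions of the chloroplast are the processes most often followed. Melatonin is an indoleamine that plants make themselves and that is used as a pretreatment against metal stress.

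Expression is given as FPKM, fragments scaled to transcript length and to the size of the library, and was summed over the isoforms of each gene. The file lists 59872 isoforms of 19584 genes, and 16800 genes reached 1 FPKM in at least 3 of the 18 leaf libraries and were tested. Between 15492 and 15687 genes stood at 1 FPKM or more in LCdM1 libraries, against 15637 to 15731 in LCdM0 libraries. Values correlated across genes between libraries of a group with r of 0.942 to 0.963 in LCdM1 and 0.956 to 0.969 in LCdM0, and with r of 0.925 to 0.955 between the groups. The tissue label was checked with 5 new genes described as chlorophyll-binding, whose summed level was 10784 to 14305 FPKM in LCdM1 and 14907 to 16132 FPKM in LCdM0, against 5.36 to 67.3 FPKM in root libraries. A list of 50 root-abundant genes summed to 245 to 474 FPKM in LCdM1 and 339 to 520 FPKM in LCdM0, against 34371 to 97802 FPKM in roots, and between 1 and 5 of the 50 were listed at 0 in each of the 6 leaf libraries. The share of bases with a quality of Q30 or better was lower in all 3 LCdM1 libraries than in every LCdM0 library. A fit with this share as a covariate is given below. Since the share differs between the groups throughout, that fit cannot tell changes that go with Q30 from changes over the day of Cd. The file holds no read counts, and the read totals that the study reports were not used, so no counting error is given.

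After 1 day of Cd, 43 of 16800 genes passed the test (0.256%), of which 23 were higher in LCdM1 (0.137%) and 20 were lower (0.119%). The rises included 3 genes of protein-disulfide reductase activity, 1 gene of chlorophyll and 1 of phenylpropanoid metabolism, a chitinase gene and protein kinase genes. The chlorophyll, phenylpropanoid and chitinase lists given below held no other call, and their medians were -0.34, -0.11 and -0.02. The falls included both called genes of sulfur metabolism and an antenna protein gene. The threshold was an adjusted p of 0.05 in limma, with Benjamini-Hochberg adjustment over all 16800 genes and no minimum change. Changes are given on the log2(FPKM + 1) scale, which understates those of low genes. Between all genes the median change was -0.03 and the median size of a change was 0.22, and 54.4% of the changes were below 0. At an unadjusted p under 0.05 the count was 1902 genes (11.3%), 793 higher (4.72%) and 1109 lower (6.6%). In 17.8% of all tested genes the 3 LCdM1 libraries and the 3 LCdM0 libraries did not overlap, and this held in all 43 called genes, as the test itself favours. In whole leaves, a lower share of cells of a type and less RNA per cell cannot be told apart. The p-values rest on the spread within all 6 leaf groups, 18 libraries in all, and not within LCdM1 and LCdM0 alone. With the compared groups alone 10 genes passed, 4 of them among the 43.

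Few of the calls held without each library in turn. Leaving out 1 of the 6 libraries at a time gave between 4 and 28 calls, and 4 of the 43 genes passed in all 6 of these fits. These were 3 genes listed at 0 throughout a group and 1 gene with no term, Lsat_1_v5_gn_1_72281. Another 14 genes passed in none of the 6 fits, 19 passed in 1, 4 passed in 2 and 2 passed in 3. LCdM1 replicate 2 weighed most, since 4 calls were left without it, against 28 without LCdM1 replicate 1 and 16 without LCdM1 replicate 3. Without LCdM0 replicates 1, 2 and 3 there were 8, 5 and 7 calls. The sign of each of the 43 changes was the same in every one of these fits. When the Q30 share entered as a covariate, 3 genes passed, all among those listed at 0 in a group, and all 43 kept their sign. In that fit the median size of the change in the 39 called genes above 0 in both groups was 1.32. It was 1.56 without the covariate. The median standard error of these genes was 0.41 with the covariate, against 0.25 without it. The Q30 share did not overlap between LCdM1 and LCdM0, so the drop in calls cannot separate Q30 from the day of Cd.

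**Figure D1:**
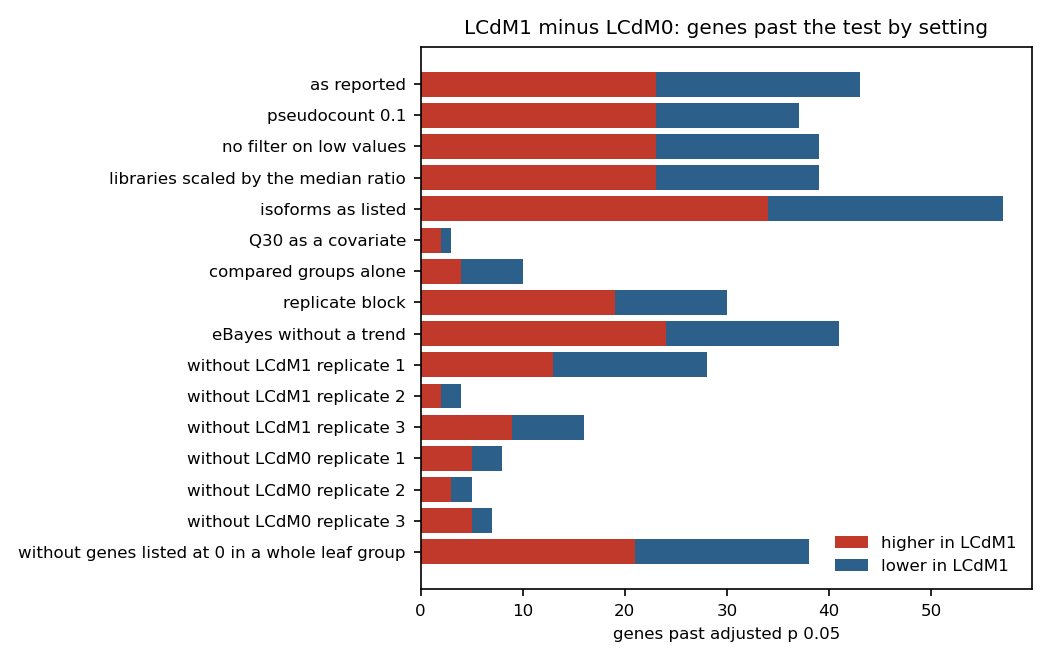
Number of genes past the test in LCdM1 minus LCdM0 (horizontal axis, genes) under each way of fitting the data (vertical axis). The count is 43 as reported, between 4 and 28 when 1 library is left out, and 3 with the Q30 share as a covariate.

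The largest differences were in genes listed at 0 in every library of one group. An exact 0 in values of this kind can be a failed estimate, so no fold change is given for them. Lsat_1_v5_gn_4_153980, a gene under carbon fixation and glyoxylate metabolism, had 53033, 73698 and 83105 FPKM in LCdM1 and was listed at 0 in all 3 LCdM0 libraries. It took 2.48%, 3.19% and 3.53% of the summed FPKM of the LCdM1 libraries, so a single entry made up a visible part of each. The same entry was listed at 0 in LCd0, the leaves without melatonin before Cd, and stood at 44123 to 69726 FPKM in LCd1.

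Lsat_1_v5_gn_2_79600, which the tables put under the same terms, had 10614.5, 39413 and 41657 FPKM in LCdM1 and was listed at 0 in all LCdM0 libraries. Without melatonin it was present on both days, with 14254, 35047 and 23102 FPKM in LCd1 and 53104, 28697 and 46747 FPKM in LCd0. LCdM0 is therefore the group that stands apart for this gene among these 4 groups. Lsat_1_v5_gn_5_144981, under light-harvesting antenna proteins, went the other way and was listed at 0 in all LCdM1 libraries, against 172, 156 and 188 FPKM in LCdM0. It was also listed at 0 in LCd1, against 177, 258 and 217 FPKM in LCd0. On day 5 it had 242, 195 and 244 FPKM in LCdM5 and was listed at 0 in LCd5. The fourth called gene of this kind, Lsat_1_v5_gn_1_113160, was listed at 0 in LCdM1 and had 2.12, 2.46 and 4.2 FPKM in LCdM0.

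Another 3 genes were listed at 0 in one group, stood at no less than 5 FPKM throughout the other, and did not pass the test. Lsat_1_v5_gn_5_154601 was listed at 0 in LCdM1 and had 5.67, 14.98 and 5.53 FPKM in LCdM0 (adjusted p = 0.167). Lsat_1_v5_gn_6_34001 was listed at 0 in LCdM1 and had 12.05, 17.1 and 11.6 FPKM in LCdM0 (adjusted p = 0.156). Novelgene1702 had 14.6, 10.8 and 7.16 FPKM in LCdM1 and was listed at 0 in LCdM0 (adjusted p = 0.23). In other leaf groups these 3 genes were listed at 0 in some libraries of a group and above 0 in others, as Novelgene1702 with 5.25, 0 and 7.08 FPKM in LCdM5.

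The other 39 called genes were above 0 in both groups. Among them 21 were higher in LCdM1, by 0.62 to 2.62 with a median of 1.40, and 17 of these changes were at least 1 on the log2 scale. The other 18 were lower, with changes of -4.44 to -0.69 and a median of -1.69, and 15 of these were at least 1 in size. A term or description was at hand for 27 of the 43 called genes, against 19.1% of all tested genes. The terms come from published tables of changed genes, so a changed gene is more likely to have one.

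Genes of protein-disulfide reductase activity gave the clearest group among the rises. These enzymes reduce disulfide bonds in proteins, as thioredoxins do. Lsat_1_v5_gn_9_26160 had 14.6, 41.7 and 26.9 FPKM in LCdM1, against 4.32, 3.77 and 2.15 FPKM in LCdM0. This was the largest rise among the genes above 0 in both groups (log2 change 2.62, SE 0.42, adjusted p = 0.021), and the lowest LCdM1 library stood above the highest LCdM0 library. Lsat_1_v5_gn_4_46420 had 7.4, 11.1 and 8.37 FPKM in LCdM1, against 1.98, 1.82 and 2.2 FPKM in LCdM0, a rise of 1.72 (SE 0.26, adjusted p = 0.0164). Lsat_1_v5_gn_9_63460 had 103, 81.5 and 71.3 FPKM in LCdM1, against 32.9, 19.6 and 27.7 FPKM in LCdM0, a rise of 1.65 (SE 0.24, adjusted p = 0.0164). Within each group the 3 libraries of these last 2 genes lay closer together than those of the gene before them. The fourth gene of this list, Lsat_1_v5_gn_8_145260, had 53.7, 61.3 and 55.3 FPKM in LCdM1, against 36.9, 21.9 and 23.0 FPKM in LCdM0, and did not pass (log2 change 1.07, adjusted p = 0.132).

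Single genes under chlorophyll, phenylpropanoid and chitinase terms were also among the rises. Lsat_1_v5_gn_7_105400, under porphyrin and chlorophyll metabolism, had 9.92, 20.7 and 21.2 FPKM in LCdM1, against 4.46, 5.83 and 3.92 FPKM in LCdM0 (log2 change 1.61, SE 0.28, adjusted p = 0.0208). Its LCdM1 replicate 1 lay between the other LCdM1 libraries and all LCdM0 libraries. Lsat_1_v5_gn_5_172380, a gene with a glycosyl hydrolase term under phenylpropanoid biosynthesis, the route to lignin and flavonoids, had 218, 262 and 279 FPKM in LCdM1, against 68.6, 87.4 and 59.0 FPKM in LCdM0. It rose by 1.82 (SE 0.29, adjusted p = 0.0196). Lsat_1_v5_gn_3_125440, with a chitinase term, had 223, 249 and 216 FPKM in LCdM1, against 89.4, 74.8 and 95.6 FPKM in LCdM0. Chitinases cut the chitin of fungal walls and belong to the defence proteins of plants, and this gene rose by 1.40 (SE 0.22, adjusted p = 0.0196).

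Several rises concerned signalling and gene regulation. Lsat_1_v5_gn_7_111881, with a protein kinase term, had 23.4, 43.1 and 37.7 FPKM in LCdM1, against 10.8, 10.5 and 12.2 FPKM in LCdM0 (log2 change 1.51, adjusted p = 0.0208). Lsat_1_v5_gn_5_170501, also with a kinase term, had 226, 278 and 276 FPKM in LCdM1, against 117, 128 and 152 FPKM in LCdM0 (log2 change 0.97, adjusted p = 0.0196). Both genes had their lowest LCdM1 value in replicate 1. Novelgene0191, described as a receptor-like protein, had 89.1, 79.5 and 64.0 FPKM in LCdM1, against 36.8, 29.9 and 37.0 FPKM in LCdM0 (log2 change 1.14, adjusted p = 0.0208). Lsat_1_v5_gn_9_39460, with a term for DNA-binding transcription factors, had 120, 118 and 101 FPKM in LCdM1, against 53.5, 42.0 and 52.8 FPKM in LCdM0 (log2 change 1.18, adjusted p = 0.0208). Lsat_1_v5_gn_8_125620, under response to light stimulus, had 6.58, 6.87 and 5.92 FPKM in LCdM1, against 2.43, 3.36 and 2.49 FPKM in LCdM0 (log2 change 1.00, adjusted p = 0.0164). It passed in 3 of the 6 fits with a library left out, as did one other gene above 0 in both groups, Lsat_1_v5_gn_9_63460.

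The rises of genes with a membrane term or with none were of similar size. Lsat_1_v5_gn_1_50821, with a membrane term, had 209, 305 and 313 FPKM in LCdM1, against 105, 76.6 and 94.2 FPKM in LCdM0 (log2 change 1.56, adjusted p = 0.0164). Lsat_1_v5_gn_6_87560, with no term, was the most abundant of the rising genes above 0 in both groups, with 4760, 2495 and 2422 FPKM in LCdM1, against 676, 957 and 694 FPKM in LCdM0 (log2 change 2.00, adjusted p = 0.0208). Here LCdM1 replicate 1 was the high library, so replicate 1 was not low in all rising genes. Of the 21 rising genes it was the lowest LCdM1 library in 10. Lsat_1_v5_gn_9_83921 had 70.9, 71.2 and 56.7 FPKM in LCdM1, against 18.8, 10.7 and 19.9 FPKM in LCdM0 (log2 change 1.98, adjusted p = 0.0264). Lsat_1_v5_gn_3_70280 had 36.8, 28.5 and 25.6 FPKM in LCdM1, against 12.1, 5.17 and 10.3 FPKM in LCdM0 (log2 change 1.67, adjusted p = 0.0165).

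Smaller rises completed the group. Novelgene2955, with an RNA binding term, had 10.5, 10.9 and 6.97 FPKM in LCdM1, against 4.24, 2.95 and 4.18 FPKM in LCdM0 (log2 change 1.12, adjusted p = 0.0208). Lsat_1_v5_gn_5_24961, with no term, had 78.9, 119.9 and 80.3 FPKM in LCdM1, against 36.2, 27.1 and 41.0 FPKM in LCdM0 (log2 change 1.39, adjusted p = 0.0307). Lsat_1_v5_gn_3_10180, with no term, had 9.32, 6.07 and 6.14 FPKM in LCdM1, against 2.68, 2.75 and 1.69 FPKM in LCdM0 (log2 change 1.27, adjusted p = 0.0208). The remaining 3 fell outside the rule for named genes and are given to complete the count. Novelgene1791 had 36.7, 42.6 and 40.2 FPKM in LCdM1, against 19.0, 12.6 and 23.9 FPKM in LCdM0 (log2 change 1.11). Lsat_1_v5_gn_8_87641 had 53.7, 57.5 and 53.2 FPKM in LCdM1, against 31.4, 31.2 and 35.7 FPKM in LCdM0 (log2 change 0.73). Lsat_1_v5_gn_8_2421, with a term of protein metabolism, had 68.8, 78.8 and 81.7 FPKM in LCdM1, against 53.0, 47.9 and 47.0 FPKM in LCdM0 (log2 change 0.62), the smallest rise of the 21.

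**Figure D2:**
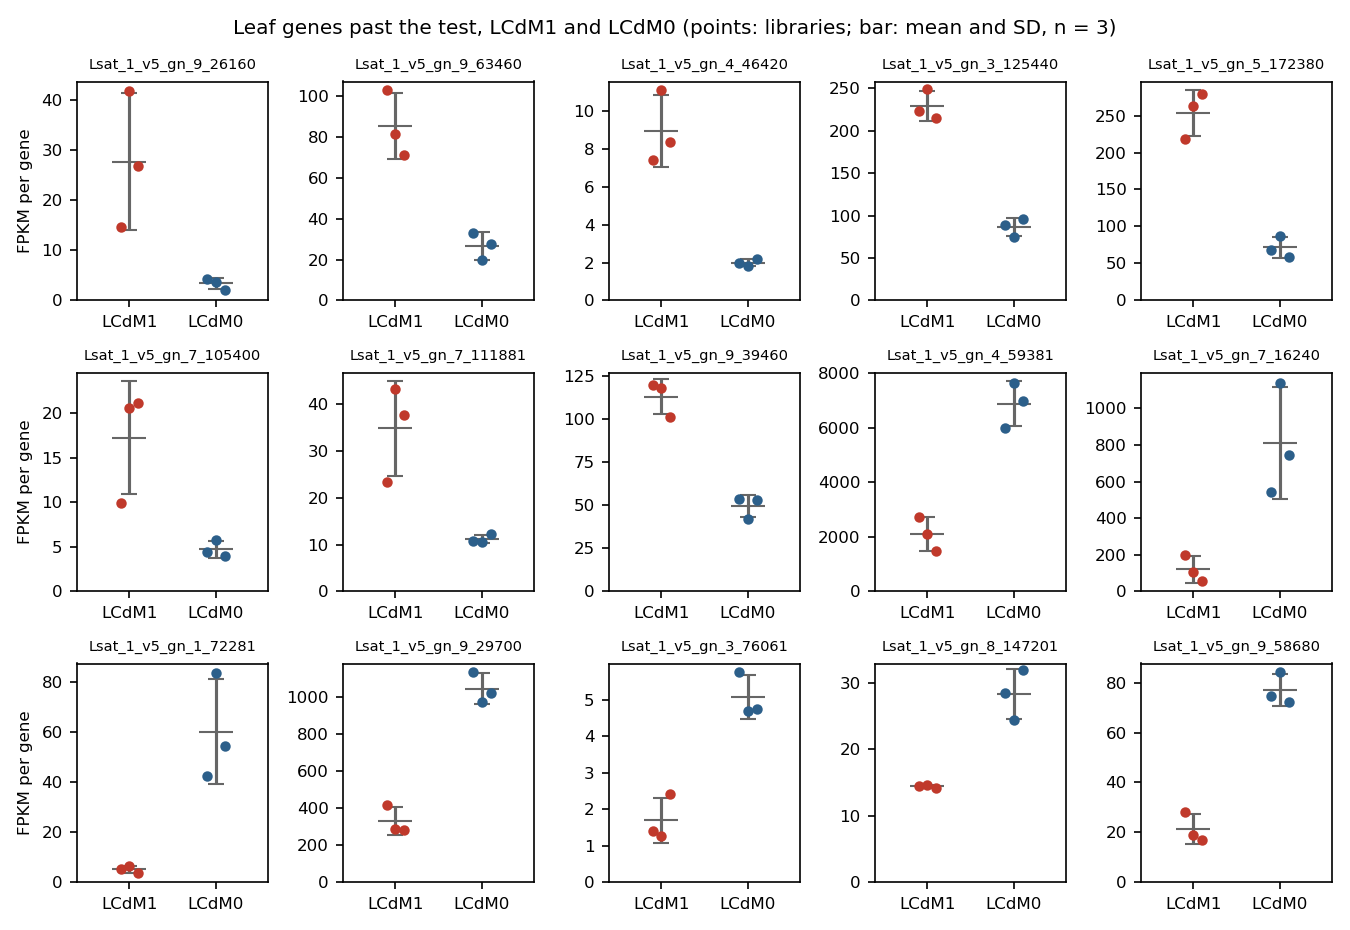
FPKM summed per gene (vertical axes) in each LCdM1 and LCdM0 leaf library for 15 genes past the test, 1 point per library with bars for the mean and SD of each group (n = 3). In every panel the 3 LCdM1 libraries lie on one side of the 3 LCdM0 libraries, as in Lsat_1_v5_gn_9_63460 with 71.3 to 103 FPKM in LCdM1 against 19.6 to 32.9 FPKM in LCdM0.

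Among the falls, 2 abundant genes shared the terms sulfur metabolism, antioxidant activity and cell redox homeostasis. Lsat_1_v5_gn_4_59381 had 2714, 2121 and 1492 FPKM in LCdM1, against 6009, 7660 and 7007 FPKM in LCdM0, a change of -1.74 (SE 0.26, adjusted p = 0.0164). Lsat_1_v5_gn_7_16240 had 198, 104 and 57.5 FPKM in LCdM1, against 543, 1141 and 746 FPKM in LCdM0, a change of -2.86 (SE 0.55, adjusted p = 0.0459). In both genes the highest LCdM1 library was replicate 1 and the highest LCdM0 library was replicate 2. Each passed in 1 of the 6 fits with a library left out.

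The fall that held in all 6 of those fits was that of Lsat_1_v5_gn_1_72281, a gene with no term. It had 5.47, 6.52 and 3.64 FPKM in LCdM1, against 42.6, 83.3 and 54.4 FPKM in LCdM0, a change of -3.27 (SE 0.40, adjusted p = 0.0034). Other falls of about this size or larger varied more between libraries. Lsat_1_v5_gn_2_3421, with a catalytic activity term, had 160, 113 and 44.1 FPKM in LCdM1, against 713, 2120.1 and 1054 FPKM in LCdM0 (log2 change -3.64, adjusted p = 0.0484). Lsat_1_v5_gn_8_4241, with no term, had 61.4, 62.0 and 17.4 FPKM in LCdM1, against 375, 1064 and 556 FPKM in LCdM0 (log2 change -3.86, adjusted p = 0.0208). Lsat_1_v5_gn_5_179820, with a protein binding term, had 38.1, 12.4 and 19.3 FPKM in LCdM1, against 115, 260 and 182 FPKM in LCdM0 (log2 change -3.01, adjusted p = 0.0208). In these 3 genes LCdM0 replicate 2 was again the highest library, which held in 10 of the 18 falling genes, and LCdM1 replicate 1 was the highest LCdM1 library in 10 of the 18. Lsat_1_v5_gn_9_108061, with no term, had 6.48, 0.152 and 0.355 FPKM in LCdM1, against 29.0, 77.9 and 49.7 FPKM in LCdM0 (log2 change -4.44, adjusted p = 0.027).

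Other falls were smaller or concerned low genes. Lsat_1_v5_gn_9_58680, with terms for ion and protein transport, had 28.1, 19.1 and 16.8 FPKM in LCdM1, against 74.7, 84.2 and 72.1 FPKM in LCdM0 (log2 change -1.83, adjusted p = 0.0496). Lsat_1_v5_gn_9_29700, with no term, had 419, 289 and 283 FPKM in LCdM1, against 1136, 974 and 1021 FPKM in LCdM0 (log2 change -1.68, adjusted p = 0.0208). Novelgene1258, described as a lateral organ boundaries domain protein, a family of plant transcription factors, had 1.58, 1.23 and 1.6 FPKM in LCdM1, against 4.41, 5.38 and 6.07 FPKM in LCdM0 (log2 change -1.34, adjusted p = 0.0208). Lsat_1_v5_gn_8_147201, with an amino acid binding term, was nearly constant in LCdM1, at 14.5, 14.6 and 14.2 FPKM, against 28.5, 24.4 and 31.9 FPKM in LCdM0 (log2 change -0.91, adjusted p = 0.035). Lsat_1_v5_gn_5_125660, with a membrane term, had 1.36 FPKM in LCdM1 replicate 1 and was listed at 0 in the other two, against 4.25, 2.36 and 3.52 FPKM in LCdM0 (log2 change -1.69, adjusted p = 0.027).

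The remaining 4 falls, in genes with no term, lay outside the rule for named genes. Lsat_1_v5_gn_4_46300 had 46.5, 41.8 and 30.5 FPKM in LCdM1, against 122, 116 and 109.7 FPKM in LCdM0 (log2 change -1.55). Lsat_1_v5_gn_4_183040 had 12.05, 13.8 and 13.9 FPKM in LCdM1, against 35.6, 30.6 and 31.3 FPKM in LCdM0 (log2 change -1.23). Lsat_1_v5_gn_6_2361 had 130.4, 147 and 173 FPKM in LCdM1, against 276, 301 and 271 FPKM in LCdM0 (log2 change -0.92). The smallest fall of the 18 was that of Lsat_1_v5_gn_7_103521, an abundant gene with 789, 832 and 715 FPKM in LCdM1, against 1254, 1362 and 1162 FPKM in LCdM0 (log2 change -0.69). In all 4 the libraries of each group lay close together compared with the gap between the groups.

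Lsat_1_v5_gn_3_76061, an isomerase gene under glycolysis, the route from sugar to pyruvate, had 1.40, 1.28 and 2.41 FPKM in LCdM1, against 5.76, 4.68 and 4.76 FPKM in LCdM0 (log2 change -1.19, adjusted p = 0.0165). Its fall lay in one isoform. A new isoform was at 9.92e-05, 0 and 0.000278 FPKM in LCdM1 and had 3.72, 3.04 and 2.28 FPKM in LCdM0. The reference isoform had 1.40, 1.28 and 2.41 FPKM in LCdM1, against 2.03, 1.64 and 2.48 FPKM in LCdM0, where the groups overlap. Taken isoform by isoform, 57 of 33357 isoforms passed, 34 higher and 23 lower, and they belonged to 41 genes, of which 30 also passed as genes. Of the 43 called genes, 11 have a single isoform in the file.

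Gene lists taken from the terms of the study's tables were then described by their counts and medians. Many members of some lists come from a table of genes changed between LCd0 and LCd1, that is, on the same day without melatonin, so their direction in that comparison was part of how they were chosen. The number of such members is given with each list that holds any. The share of genes past the test among all tested genes was 0.256%, and the median change of all genes was -0.03.

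Of the 4 genes of protein-disulfide reductase activity, 3 rose, none fell, and all 4 had groups that did not overlap, against 7.18% of all tested genes in that direction. Their median change was 1.68, and it lay between 1.56 and 1.76 when 1 library was left out. All 4 came from the table of LCd0 and LCd1. Of the 5 genes of sulfur metabolism, 2 fell and the groups did not overlap in all 5, against 10.6% of all tested genes in that direction. The median of the 5 was -1.61, and it lay between -1.95 and -1.18 with 1 library left out. The 3 that did not pass include Lsat_1_v5_gn_6_65880, with 346, 212 and 281 FPKM in LCdM1, against 437, 473 and 441 FPKM in LCdM0 (log2 change -0.71, adjusted p = 0.114). All 5 came from the table of LCd0 and LCd1.

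Further lists of redox and thiol terms lay on the same side. Of 12 genes of cell redox homeostasis, all 12 had a change below 0, 9 had groups that did not overlap, against 10.6% of all tested genes, and 2 passed, the sulfur genes named above. Their median was -0.82, and all 12 came from the table of LCd0 and LCd1. Of 24 genes of antioxidant activity, 20 had a change below 0 and the same 2 passed, with a median of -0.75, and 14 came from that table. Of 6 genes of glutathione metabolism none passed, all 6 had a change below 0 and 5 had groups that did not overlap lower, against 10.6% of all tested genes, with a median of -0.51. With the Q30 share as a covariate that median was -0.12. An example is Lsat_1_v5_gn_1_3240, with 165, 204.5 and 227 FPKM in LCdM1, against 325, 466 and 291 FPKM in LCdM0 (log2 change -0.84, adjusted p = 0.147). Of 6 genes of iron-sulfur cluster binding none passed, and their median was -0.70, or -0.36 with the Q30 covariate. All members of these last 2 lists came from the table of LCd0 and LCd1. The peroxidase list, which owes no member to it, had a median of 0.04 over 11 genes, with 6 above 0 and none past the test. That median has no settled sign, since it lay between -0.37 and 0.06 with 1 library left out and was -0.54 with the Q30 covariate.

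None of the 19 ribosome genes passed, but all 19 had a change below 0. Their median was -0.76, and 15 of the 19 had groups that did not overlap lower, against 10.6% of all tested genes. At an unadjusted p under 0.05 the same number, 15, were lower, against 6.6% of all tested genes. Lsat_1_v5_gn_9_15461 had 946, 1036 and 984 FPKM in LCdM1, against 1812, 1827 and 1662 FPKM in LCdM0 (log2 change -0.84, SE 0.21, adjusted p = 0.149). All 19 came from the table of LCd0 and LCd1. The 19 genes of rRNA processing, the trimming of ribosomal RNA, had a median on the other side, 0.32, with 14 above 0 and none past the test, and 11 of its members came from that table.

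Leaf metabolism showed small changes below 0 with few or no calls. None of 27 photosynthesis genes passed, 26 had a change below 0, and 17 had groups that did not overlap lower, against 10.6% of all tested genes. Their median was -0.43, between -0.47 and -0.38 with 1 library left out, and -0.26 with the Q30 share as a covariate. Of these 27 genes, 11 came from the table of LCd0 and LCd1. Lsat_1_v5_gn_6_35480 had 1398, 1986 and 2180 FPKM in LCdM1, against 2843, 3077 and 2377 FPKM in LCdM0 (log2 change -0.59, adjusted p = 0.359). Of 16 genes of antenna proteins, 1 passed, the gene listed at 0, and 14 had a change below 0. The median of the 16 was -0.35, or -0.20 without LCdM1 replicate 1, and none came from that table. Lsat_1_v5_gn_9_34120 of this list had 4141, 5026 and 4698 FPKM in LCdM1, against 6660, 6512 and 6653 FPKM in LCdM0 (log2 change -0.52, adjusted p = 0.173).

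Of 23 genes of carbon fixation, 2 passed, both listed at 0 in LCdM0, while 18 had a change below 0 and the median was -0.35. Lsat_1_v5_gn_7_69401 came nearest among the others, with 5396, 4757 and 5830 FPKM in LCdM1, against 10961, 11632.5 and 9252 FPKM in LCdM0 (log2 change -0.99, adjusted p = 0.0651). In the porphyrin and chlorophyll list, 1 of 14 genes rose, the one described above, while 12 of the 14 had a change below 0, with a median of -0.34. Besides the gene that rose, the change was above 0 in Lsat_1_v5_gn_4_185401, where it lay in LCdM1 replicate 1, with 37.4, 2.35 and 2.06 FPKM in LCdM1, against 2.34, 2.02 and 1.45 FPKM in LCdM0 (adjusted p = 0.757). The porphyrin list holds 5 genes from the table of LCd0 and LCd1 and the carbon fixation list 9. Of 23 genes of amino acid biosynthesis none passed, 22 had a change below 0 and the median was -0.45, with 14 members from the table of LCd0 and LCd1. Lsat_1_v5_gn_5_105641 of this list had 26.3, 23.6 and 14.7 FPKM in LCdM1, against 55.4, 104 and 78.6 FPKM in LCdM0 (log2 change -1.83, adjusted p = 0.0709).

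Lists of hormone, defence and transport terms held hardly any calls. None of 22 genes of plant hormone signal transduction passed (median 0.10), none of 28 of plant-pathogen interaction (median 0.18), and none of 16 of metal ion transport (median 0.13). One of 37 genes of phenylpropanoid biosynthesis and 1 of 9 chitinase genes rose, those named above, with medians of -0.11 and -0.02. The median of the chitinase list lay between -0.23 and 0.52 with 1 library left out, so it has no settled sign, and 3 of its members came from the table of LCd0 and LCd1. Other medians of these lists are no firmer. With 1 library left out they lay between -0.07 and 0.22 for the hormone list, 0.03 and 0.36 for plant-pathogen interaction, 0.0084 and 0.23 for metal ion transport, and -0.30 and 0.046 for phenylpropanoids. With the Q30 covariate the plant-pathogen median was -0.19. One of 10 DNA-binding transcription factor genes rose, and the median of the list was 0.13, between -0.087 and 0.30 with 1 library left out. The 10 genes of xyloglucosyl transferase activity, which remodels the cell wall, had a median of 0.50 with none past the test, and 0.12 with the Q30 covariate. Among the hormone genes, Lsat_1_v5_gn_1_18200 had 27.3 FPKM in LCdM1 replicate 1 and was listed at 0 in the other 5 libraries. Among the genes of metal ion transport, Lsat_1_v5_gn_3_119200 had 855, 1253 and 1031 FPKM in LCdM1, against 627, 405 and 713 FPKM in LCdM0 (log2 change 0.87, adjusted p = 0.228). Among those of plant-pathogen interaction, Lsat_1_v5_gn_2_46760 came nearest to the threshold, with 101, 112 and 139.8 FPKM in LCdM1, against 58.3, 63.1 and 79.9 FPKM in LCdM0 (log2 change 0.80, adjusted p = 0.0983). Both genes had groups that did not overlap.

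The 7 genes of the flavonoid list had a median of 0.20 and none passed. The median lay between -0.19 and 0.26 with 1 library left out and was -0.43 with the Q30 covariate, so it has no settled sign. In 3 of the 7 the groups did not overlap lower, against 10.6% of all tested genes. Lsat_1_v5_gn_2_76880 had 135, 118 and 169 FPKM in LCdM1, against 501, 1052 and 359 FPKM in LCdM0 (log2 change -2.04, adjusted p = 0.379). Lsat_1_v5_gn_8_99521 had 164, 179 and 151 FPKM in LCdM1, against 554, 559 and 358 FPKM in LCdM0 (log2 change -1.54, adjusted p = 0.285). Lsat_1_v5_gn_8_63761 had 338, 479 and 412 FPKM in LCdM1, against 729, 741 and 547 FPKM in LCdM0 (log2 change -0.72, adjusted p = 0.296). No gene passed either in the lists of starch and sucrose (median -0.25), nitrogen (-0.26), cysteine and methionine (-0.29), alpha-linolenic acid (-0.19), superoxide (-0.53) and circadian terms (-0.20), or of protein folding (-0.07), copper binding (-0.14), calcium binding (-0.25), cellulose synthase (-0.20) and transition metal transport (-0.11). Most of these medians moved with single libraries. Leaving out 1 library gave -0.35 to -0.10 for starch and sucrose, -0.53 to -0.19 for cysteine and methionine, -0.23 to -0.054 for alpha-linolenic acid, -0.78 to -0.18 for superoxide, -0.26 to -0.014 for circadian terms and -0.64 to -0.0062 for calcium binding. The sign turned for protein folding, at -0.17 to 0.14, for copper binding, at -0.38 to 0.091, and for cellulose synthase, at -0.33 to 0.00019, and with the Q30 covariate for transition metal transport, at 0.064. For nitrogen the Q30 covariate gave -0.42. The glycolysis list had 1 gene lower of 28, the isomerase gene, and a median of -0.29, or -0.19 without LCdM1 replicate 3, with 7 members from the table of LCd0 and LCd1.

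**Figure D3:**
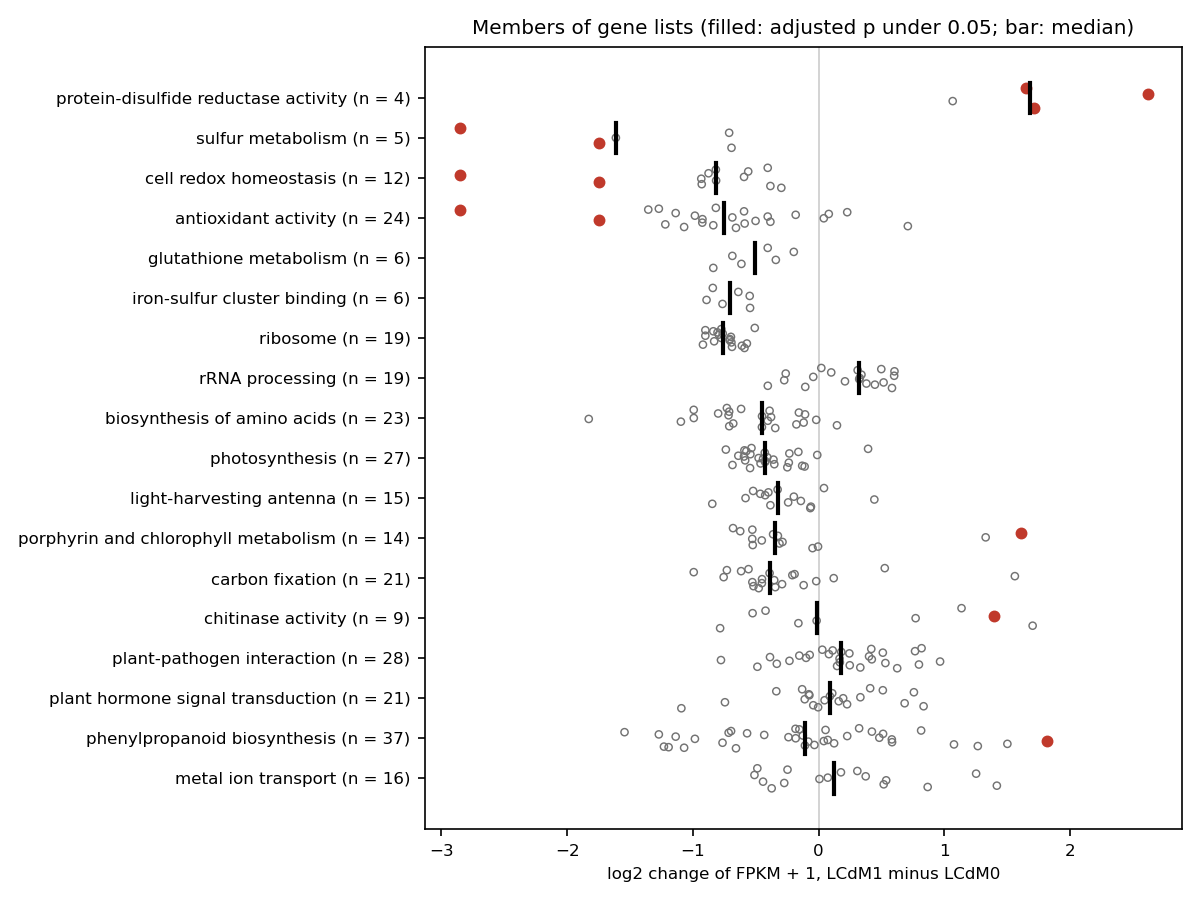
Log2 change in LCdM1 minus LCdM0 (horizontal axis, log2 of FPKM + 1) of the tested genes of 18 lists (rows), without those listed at 0 in a group. Each point is a gene, filled where it passed, and a black bar is the median of the list. Medians range between 1.68 for protein-disulfide reductase activity and -1.61 for sulfur metabolism, against -0.03 for all genes.

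The text of the study names 22 genes of antioxidant, lignin and hormone families by identifier. The study names them mostly for differences with melatonin or between roots and leaves, not for this comparison. Of these, 21 were in the file, 19 were tested, and none passed in limma, with 1 at an unadjusted p under 0.05. The counts are therefore no check of what the study reports for them. That gene was Lsat_1_v5_gn_1_21140, of the ABF family of factors of abscisic acid signalling, with 21.0, 12.3 and 7.88 FPKM in LCdM1, against 22.5, 21.9 and 23.2 FPKM in LCdM0 (log2 change -0.77, adjusted p = 0.288). A peroxidase-like gene, Lsat_1_v5_gn_4_26041, had 202, 21.5 and 39.2 FPKM in LCdM1, against 11.5, 19.9 and 30.0 FPKM in LCdM0 (log2 change 1.503, adjusted p = 0.569). Its mean difference lay in LCdM1 replicate 1. The ascorbate peroxidase-like Novelgene1716, an enzyme that removes hydrogen peroxide with ascorbate, had 504.5, 437 and 279 FPKM in LCdM1, against 568, 520 and 459 FPKM in LCdM0 (log2 change -0.38, adjusted p = 0.526). The 4 laccase-like genes that were tested, which act in lignin formation, were at 0.404 to 2.95 FPKM in LCdM1 and 0.341 to 5.49 FPKM in LCdM0, and the groups overlapped in all 4. Of 78 genes under the terms tabulated for changes between these same LCdM0 and LCdM1 leaves, 76 were tested, of which 9 rose and 3 fell. That list was picked on these samples, so its counts are no independent evidence.

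The same day of Cd was also followed in leaves without melatonin, in libraries that the comparison above does not use. There, LCd1 minus LCd0, 496 genes passed (2.95%), 153 higher (0.911%) and 343 lower (2.04%). No LCd1 library had a Q30 share below every LCd0 library, and with that share as a covariate 477 genes passed. The 2 comparisons are therefore uneven in Q30. Of the 43 genes called with melatonin, 29 passed there in the same direction, which is 67.4% of the 43 and 5.85% of the 496, and 40 had the same sign. Of the 496, 479 had the same sign in the melatonin leaves, and 331 (66.7%) were past an unadjusted 0.05 there in the same direction, against 11.3% of all genes in either direction. The median size of the change in the 39 genes above 0 in both groups was 1.56 with melatonin and 1.19 in the same direction without. In the 491 genes called without melatonin and not listed at 0, the median change in their own direction was 0.52 with melatonin and 0.93 without. Each set was picked for being large in its own comparison, so these medians do not show a difference between the treatments. The median standard error was 0.25 in both comparisons, which the shared fit and the equal group sizes fix in advance.

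**Figure D4:**
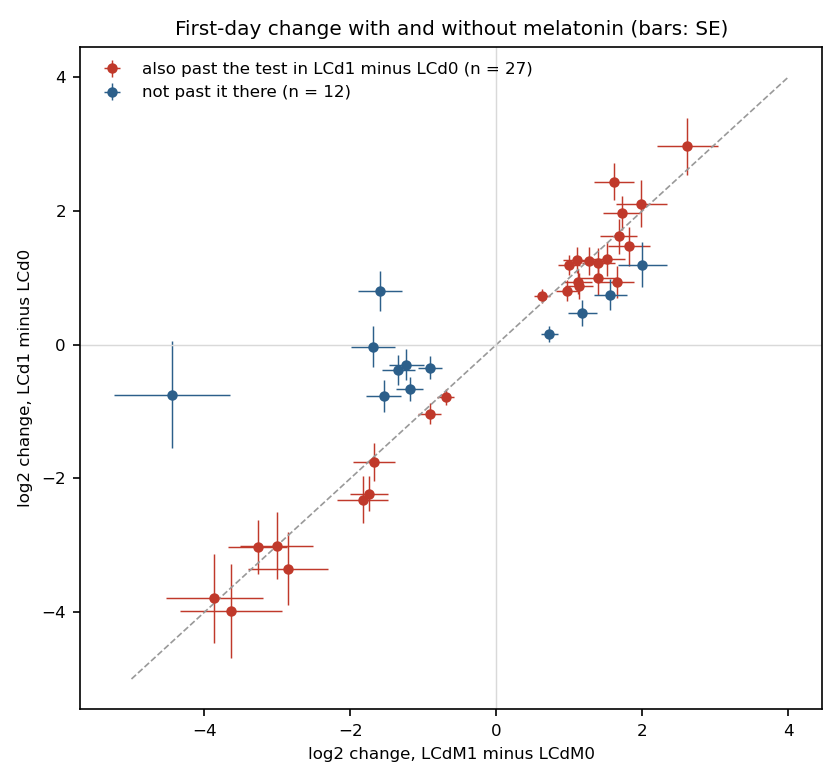
Log2 change over day 1 of Cd with melatonin (LCdM1 minus LCdM0, horizontal axis) and without (LCd1 minus LCd0, vertical axis) for the 39 called genes above 0 in both melatonin groups, 1 point per gene. Bars are SE, colours tell the 27 that also passed without melatonin from the 12 that did not, and the dashed line is where both changes are equal.

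The difference between the changes was tested gene by gene. It passed in 2 genes (0.0119%), Lsat_1_v5_gn_2_79600, described above, and Lsat_1_v5_gn_8_134041. The second was listed at 0 in LCdM1 and LCdM0 and in LCd1, and had 5.43, 6.73 and 10.9 FPKM in LCd0. At an unadjusted p under 0.05 there were 617 genes (3.67%). When genes listed at 0 in a whole leaf group were left out, none passed in limma, with 609 genes at an unadjusted p under 0.05. The median 95% interval of a difference, not adjusted for the number of genes tested, reached 0.76 to either side on the log2 scale. The adjusted test is stricter, so differences well above 0.76 could also go undetected. In the protein-disulfide reductase gene Lsat_1_v5_gn_9_26160 the change was 2.62 with melatonin and 2.96 without. In the sulfur gene Lsat_1_v5_gn_4_59381 it was -1.74 with melatonin and -2.23 without, and in Lsat_1_v5_gn_7_16240 it was -2.86 with and -3.35 without. Some list medians were alike, at 1.68 with and 1.51 without for the 4 reductase genes and -1.61 and -1.85 for the 5 sulfur genes. They were -0.76 and -1.05 for the 19 ribosome genes, and -0.43 and -0.64 for the 27 photosynthesis genes. All reductase, sulfur and ribosome genes and 11 photosynthesis genes came from the table of LCd0 and LCd1, which favours this. Lists with no member from it varied. Medians kept their sign for antenna proteins (-0.35 and -0.46) and starch and sucrose (-0.25 and -0.31). They differed in sign for metal ion transport (0.13 and -0.56) and superoxide terms (-0.53 and 0.15). The same held for flavonoid (0.20 and -0.37), hormone (0.10 and -0.03), peroxidase (0.04 and -0.28) and protein folding lists (-0.07 and 0.22). It also held for copper binding (-0.14 and 0.14), transition metal transport (-0.11 and 0.21) and transcription factors (0.13 and -0.18). No single difference passed in these lists, and several of these medians have no settled sign. The other lists with no member from that table kept theirs.

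Some called genes had a smaller or opposite value without melatonin, though the difference did not pass. Lsat_1_v5_gn_2_133001, with a catalytic activity term, had 0.277, 0.0905 and 0.0706 FPKM in LCdM1, against 2.69, 2.55 and 2.15 FPKM in LCdM0. Its change was -1.60 with melatonin and 0.80 without, and the difference of -2.39 had a 95% interval of -3.30 to -1.48 (adjusted p = 0.153). Lsat_1_v5_gn_1_113160, listed at 0 in LCdM1, had a difference with an adjusted p of 0.0655. Lsat_1_v5_gn_9_108061 had a change of -4.44 with melatonin and -0.75 without. Lsat_1_v5_gn_9_39460, the transcription factor gene, had 1.18 with and 0.47 without, and Lsat_1_v5_gn_1_50821 had 1.56 with and 0.75 without.

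On day 5 most called genes lay between their day 0 and day 1 levels. LCdM5 libraries belong to the same pretreatment, and the values share LCdM0 and LCdM1, so they are given side by side only. Of the 21 rising genes, 13 had a day 5 mean between the other two, 4 lay beyond day 1 and 4 lay below day 0. Of the 18 falling genes, 11 lay between, 7 lay below day 1 and none lay above day 0. The median change of the rising genes was -0.56 against day 1 and 0.69 against day 0, and that of the falling genes was 0.80 against day 1 and -1.41 against day 0. The reductase gene Lsat_1_v5_gn_9_26160 was back at 1.29, 2.45 and 1.2 FPKM in LCdM5, a change against LCdM1 of -3.35 (adjusted p = 0.0012). Lsat_1_v5_gn_9_63460, of the same term, had 27.0, 25.5 and 32.3 FPKM in LCdM5, within its range of 19.6 to 32.9 FPKM in LCdM0.

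Other genes stayed at their day 1 level or went past it. The chitinase gene Lsat_1_v5_gn_3_125440 had 181, 231 and 291 FPKM in LCdM5, against 216 to 249 FPKM in LCdM1. Lsat_1_v5_gn_6_87560 went further, with 9211 to 11737 FPKM in LCdM5, against 2422 to 4760 FPKM in LCdM1. The sulfur genes remained below day 0, with 925, 2134 and 1317 FPKM of Lsat_1_v5_gn_4_59381 in LCdM5, against 6009 to 7660 FPKM in LCdM0. Lsat_1_v5_gn_7_16240 had 133, 741 and 227 FPKM in LCdM5, where replicate 2 reached the range of LCdM0. Lsat_1_v5_gn_1_72281 had 9.01, 33.2 and 17.7 FPKM in LCdM5, above LCdM1 and below LCdM0 in all 3 libraries.

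**Figure D5:**
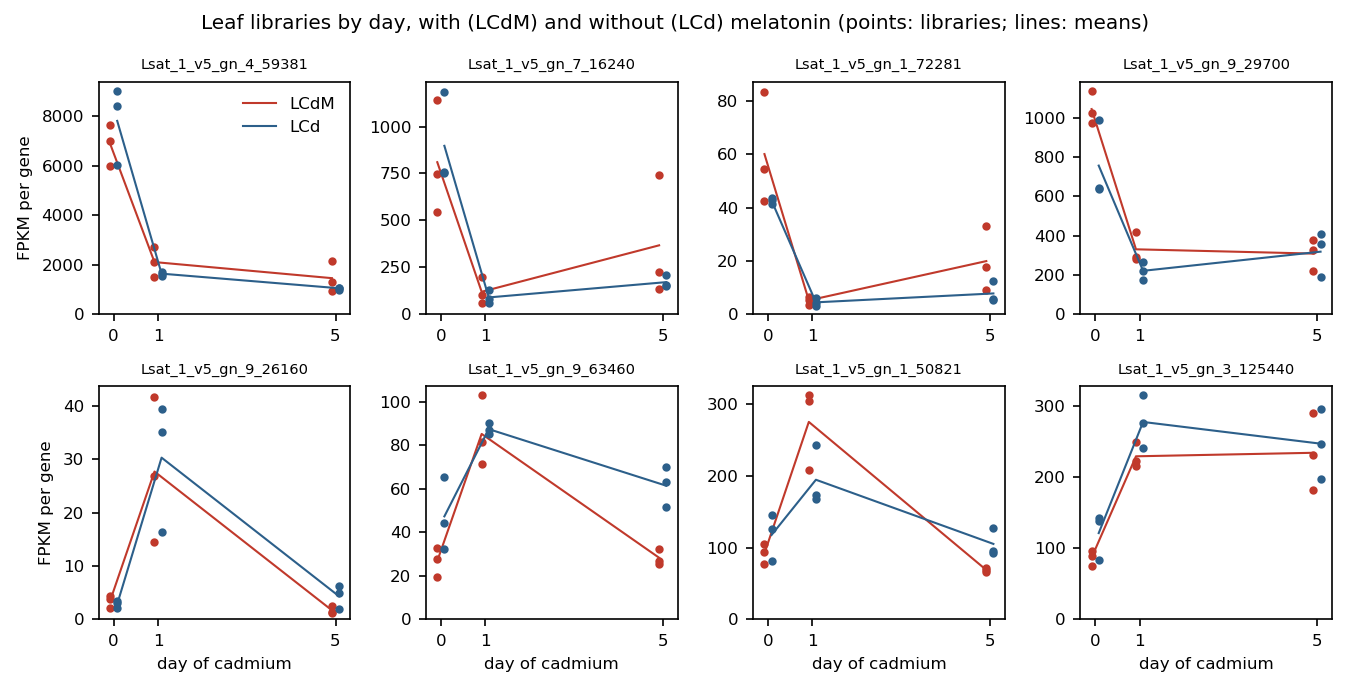
FPKM per gene (vertical axes) over 5 days of Cd (horizontal axis, days, sampled at 0, 1 and 5) in leaves with melatonin (LCdM) and without (LCd) for 8 called genes, 1 point per library with lines through the group means. The disulfide reductase gene Lsat_1_v5_gn_9_26160 stands at 14.6 to 41.7 FPKM on day 1 with melatonin and at 1.2 to 2.45 FPKM on day 5.

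In roots with the same pretreatment, RCdM1 minus RCdM0, 209 of 17227 genes passed (1.21%), 64 higher (0.372%) and 145 lower (0.842%). Of the 43 leaf genes, 41 were tested in roots, 3 passed there, and these 3 moved the other way than in leaves. They were Lsat_1_v5_gn_4_153980, with 16.9, 18.8 and 23.3 FPKM in RCdM1 against 123, 82.6 and 149 FPKM in RCdM0, Lsat_1_v5_gn_2_79600 and Lsat_1_v5_gn_5_125660. Of the 41, 23 had the same sign as in leaves. The difference between the leaf and the root change passed in 98 of 18056 genes (0.543%), and 20 of these were among the 43, which were picked for a change in leaves. The reductase gene Lsat_1_v5_gn_9_26160 had 13.5, 15.9 and 11.3 FPKM in RCdM1, against 30.0, 28.9 and 25.0 FPKM in RCdM0, and the leaf change exceeded the root change by 3.62 (adjusted p = 0.00038). The sulfur gene Lsat_1_v5_gn_7_16240 had 348, 269 and 199.6 FPKM in RCdM1, against 324, 207 and 229.5 FPKM in RCdM0, and its leaf change minus its root change was -2.95 (adjusted p = 0.037). For Lsat_1_v5_gn_4_59381 the difference of -1.36 did not pass (adjusted p = 0.24). The list medians were 1.68 in leaves and 0.02 in roots for the reductase genes, and -1.61 in leaves and -0.12 in roots for the sulfur genes. All members of these lists came from the table of LCd0 and LCd1, which favours the larger change in leaves. Other medians were larger in roots, at -0.35 in leaves and -1.77 in roots for antenna proteins and -0.43 and -1.31 for photosynthesis. They were -0.26 and -1.56 for nitrogen and 0.13 and 0.70 for metal ion transport. The lists also draw on tables of changed root genes, which can favour this.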

How the data were processed

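The authors deposited 1 table of FPKM values per isoform for RNA-seq of leaves and roots, with 36 libraries. The submitters' processing notes name TopHat2 2.0.12 and Bowtie2 2.0.6. The sources used here do not name the tool that gave FPKM per isoform. Between 1142 and 1238 isoform values in each of the 6 libraries lay above 0 and under 0.001 FPKM, so the values are estimates. The deposited values carry no depth, and the read totals that the study reports did not enter the fits.

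Isoforms were summed per gene. Genes that reached 1 FPKM in 3 or more of the libraries fitted were tested on log2(FPKM + 1) with limma 3.58.1 in R 4.3.3 (lmFit, contrasts.fit, eBayes with a trend). All 18 leaf libraries entered the fit, so the spread is shared by the 6 leaf groups. The difference from LCd1 minus LCd0 was a contrast in that fit, and the difference from roots a contrast in the fit of all 36 libraries. In data simulated on 16636 leaf genes for LCdM1 against LCdM0, 47 of 100 genes changed by 1 on the log2 scale and 88 of 100 changed by 2 were recovered, with 7 false calls. The 200 changed genes were drawn from those with a mean log2 value above 2, without the most variable genes. Residuals were drawn independently, with no effect of a library or of Q30. These shares therefore do not give the recovery for all leaf genes.

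The genes named were, among those past the test whose groups do not overlap, the 15 largest rises and 15 largest falls with a term or description and the 5 and 5 largest with none, then genes the study names by identifier and 2 to 4 members of each list. Lists are GO and KEGG terms from the study's tables. The members and lists were chosen with earlier results of these data known. Functions are given only from those tables and descriptions. Alternatives were another pseudocount, no filter, scaling by the median ratio, isoforms in place of genes, Q30 as a covariate, the groups compared alone, a replicate block, no trend, and leaving out each library. Leaving out genes listed at 0, and Q30 with a block, were added after seeing the data. Tables were made with Python 3.11.15, pandas 2.3.3 and numpy 2.4.6.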

Additional observations from a re-analysis of the deposited data

Results flagged for a closer look

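Some changes over day 1 of Cd differed from the same change in leaves without melatonin, or in roots, by the test of the difference itself (adjusted p under 0.05 in limma). The change over day 1 was higher with melatonin than without by 15.54 on the log2 scale in Lsat_1_v5_gn_2_79600 (listed at 0 in LCdM0) and by 3.07 in Lsat_1_v5_gn_8_134041 (listed at 0 in LCdM1, LCdM0 and LCd1). These sizes depend on the pseudocount and are no folds.

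The change in melatonin-treated leaves was higher than that in melatonin-treated roots by 18.57 in Lsat_1_v5_gn_4_153980 and 16.90 in Lsat_1_v5_gn_2_79600, both listed at 0 in LCdM0. Among genes above 0 in both leaf groups it was higher by 3.62 in Lsat_1_v5_gn_9_26160, 3.25 in Lsat_1_v5_gn_7_105400, 2.61 in Lsat_1_v5_gn_3_70280, 2.29 in Lsat_1_v5_gn_9_83921, 2.18 in Lsat_1_v5_gn_7_111881, 2.01 in Lsat_1_v5_gn_1_50821 and 1.86 in Lsat_1_v5_gn_5_172380. The same held by 1.64 in Lsat_1_v5_gn_4_46420, 1.58 in Lsat_1_v5_gn_5_24961, 1.19 in Novelgene2955 and 1.00 in Lsat_1_v5_gn_8_125620.

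The leaf change was the lower one in 7 genes. The difference was -6.89 in Lsat_1_v5_gn_5_144981 (listed at 0 in LCdM1), -4.08 in Lsat_1_v5_gn_2_3421, -3.42 in Lsat_1_v5_gn_5_125660, -2.95 in Lsat_1_v5_gn_7_16240, -2.83 in Lsat_1_v5_gn_1_72281, -2.15 in Lsat_1_v5_gn_9_29700 and -1.33 in Lsat_1_v5_gn_3_76061. All of these genes but Lsat_1_v5_gn_8_134041 were picked for their change in leaves, which favours a difference from roots.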

How the results depend on the processing

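LCdM1 minus LCdM0 gave 43 calls as reported, 37 with a pseudocount of 0.1, 39 with no filter, 39 with scaling by the median ratio, 41 without a trend, 57 with isoforms as listed and 38 without genes listed at 0. It gave 10 with the groups compared alone, 3 with Q30 as a covariate, 3 with Q30 and a replicate block, and 4 to 28 with 1 library left out. LCd1 minus LCd0 gave 496, 477 with Q30 as a covariate, 56 alone and 149 to 307 with 1 library left out. No LCd1 library had a Q30 share below every LCd0 library. In roots, as in LCdM1, all 3 RCdM1 libraries had a Q30 share below every RCdM0 library. With scaling its split was 193 higher and 231 lower, against 153 and 343 as reported. Their difference gave 2, 12 with isoforms, 0 without genes listed at 0 and 2 to 3 with 1 library left out. RCdM1 minus RCdM0 gave 209, 13 with Q30, 39 alone and 44 to 138 with 1 library left out, and with scaling 96 higher and 124 lower against 64 and 145. The leaf minus root difference gave 98, 50 with Q30, 55 alone and 40 to 131 with 1 library left out. The cause of these shifts was not tested.

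The replicate numbers were not taken to pair the samples. Deviations of same-numbered LCdM1 and LCdM0 libraries correlated at 0.14, 0.17 and -0.17. Differently numbered libraries were not set beside them, so these values cannot settle whether the numbers pair the samples. With a replicate block 30 genes passed, 29 of them among the 43. All 43 kept their sign in every setting that held them.

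Genes that did not pass turned sign in some settings. With Q30 the changes were 0.051 in Lsat_1_v5_gn_7_18261, 0.39 in Lsat_1_v5_gn_8_71281, 0.32 in Lsat_1_v5_gn_9_36021, 0.21 in Lsat_1_v5_gn_3_76141, 0.62 in Lsat_1_v5_gn_9_24581, 0.21 in Lsat_1_v5_gn_7_80360 and -0.74 in Lsat_1_v5_gn_4_34281, and with a pseudocount of 0.1 that of Lsat_1_v5_gn_9_24581 was 0.025. With 1 library left out they ranged over -0.81 to 0.63 in Lsat_1_v5_gn_6_16060, -0.26 to 0.028 in Lsat_1_v5_gn_7_18261, -0.12 to 0.24 in Lsat_1_v5_gn_5_187421, -0.47 to 0.24 in Lsat_1_v5_gn_8_71281, -0.58 to 0.17 in Lsat_1_v5_gn_9_36021, -0.88 to 0.091 in Lsat_1_v5_gn_3_76141 and -0.39 to 0.52 in Lsat_1_v5_gn_9_24581.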
